A study of Mus musculus with 2 samples.

Results

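The autophagy machinery and the mTOR pathway that controls it were followed through 40 genes in follicular (FO) and marginal zone (MZ) B cells of the mouse spleen. A gene was a member when its symbol was on the list and the array had a probe set annotated to it alone. Of the 40 genes, 35 had such a probe set, among 12393 genes with one on the array, and 34 were measured above a floor on dim signals, among 7695 measured genes. Atg10 was on the array but not above the floor, and Atg9a, Atg4c, Optn, Rptor and Prkaa1 had no probe set annotated to them alone and were not analysed here.

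RNA was taken from sorted B cells and hybridised to 2 Affymetrix arrays, 1 of each population. Both populations came from wild-type female C57BL/6 spleens, with no treatment named in the labels and no age given. B cells of 3 mice were enriched with beads against B220 and sorted by flow cytometry, FO cells as CD23 high with intermediate CD21 and MZ cells as CD21 high with intermediate CD23. The sorted cells of a population were lysed as 1 pool, whether FO and MZ cells shared the same mice is not stated, and with 1 array per population there is no replicate error and no test, so every difference below describes these arrays by its size.

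Autophagy is the route by which a cell wraps part of its cytoplasm in a double membrane and delivers it to the lysosome. A protein kinase complex built on ULK1 starts the process, a lipid kinase complex built on VPS34 and Beclin 1 marks the growing membrane, and enzymes that resemble those of ubiquitin transfer attach LC3 and GABARAP proteins to it, where receptors such as p62 bring cargo. The kinase mTOR, in the complex with Raptor, holds the ULK1 complex in check when nutrients are plentiful, and AMP-activated kinase and the TSC proteins oppose mTOR. In B cells, autophagy is known for its part in plasma cells and memory cells.

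Signals are MAS5 intensities, scaled so that both arrays had the same 2% trimmed mean, and are given with FO before MZ cells. The floor was a signal of 12.7, the median of all scaled values, and a fold is written "at least" where one of the signals was under it. Log2 ratios are MZ over FO, so a negative value is a higher FO signal. Where a gene had several probe sets above the floor, the brightest gave its value.

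The sort was visible in its gate genes: Fcer2a, which encodes CD23, was at 727 and 89.6, and Cr2, which encodes CD21, was at 278 and 890. All 7 measured B cell markers of 8 listed were above the floor in both populations, among them Ms4a1, which encodes CD20, at 1754 and 1878. Their median log2 ratio was -0.32. Cd79b, a chain of the B cell receptor, was at 1040 and 546, 1.90-fold higher in FO cells, and Blk, a kinase of that receptor, was 2.20-fold higher in MZ cells. Of 14 macrophage and monocyte markers, 13 had a probe set and 8 were measured, all 8 with the higher signal in the MZ sample. Of the 8, Cd5l, C1qb, Cd68, Vcam1 and Cd14 were under the floor in the FO sample, so being measured fixed their direction. The others were Csf1r at 17.3 and 42.5, Lyz2 at 12.9 and 25.2, and Adgre1, nearly level at 23.7 and 24.9. The summed signal over the 13 was 91.3 and 212, and C1qa, C1qc, Fcgr1, Hmox1 and Marco were above the floor in neither sample. All 7 plasma cell markers had a probe set and 6 were measured, with a summed signal of 1077 and 1329. Most of that sum came from Xbp1 (397 and 659) and Irf4 (532 and 527), while Prdm1 was at 12.7 and 30.9 and Sdc1 at 68.3 and 4.35. Of 10 T and NK cell markers with a probe set 3 were measured, and of 4 erythroid markers 2, all with the higher signal in the FO sample. All of these were under the floor in the MZ sample, so being measured fixed that direction. Summed over every marker with a probe set, also those under the floor, the signals were 58.0 and 33.2 and 39.7 and 25.4. Of 5 dendritic cell markers 3 were measured, and of 7 neutrophil markers 3, with sums taken the same way of 40.2 and 61.7 and of 57.4 and 75.5. The part of such cells in the differences below was not tested, and in bulk samples fewer cells of a type and less RNA per cell cannot be told apart.

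Most autophagy and mTOR genes were at similar levels in FO and MZ cells. Of the 34 measured members, 31 were within 2-fold and 25 within 1.5-fold, beside 90.7% and 70.6% of all measured genes. Only Pik3r4 was at least 2-fold higher in MZ cells, and Mtor and Atg4d were at least 2-fold higher in FO cells. Over all 7695 measured genes, 4.39% were at least 2-fold higher in MZ cells and 4.86% in FO cells (9.25% in either direction), so the members' counts of 1 and 2 of 34 lie near that background. The signal was higher in MZ cells for 16 members and in FO cells for 18, beside 47.8% and 52.2% of all genes. The members' median log2 ratio was -0.085 and that of all measured genes -0.030. The members' median was 0.0048 without probe sets ending in _s_at or _x_at. The middle 50% of members ran from -0.47 to 0.23, and that of all genes from -0.38 to 0.32.

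**Figure D1:**
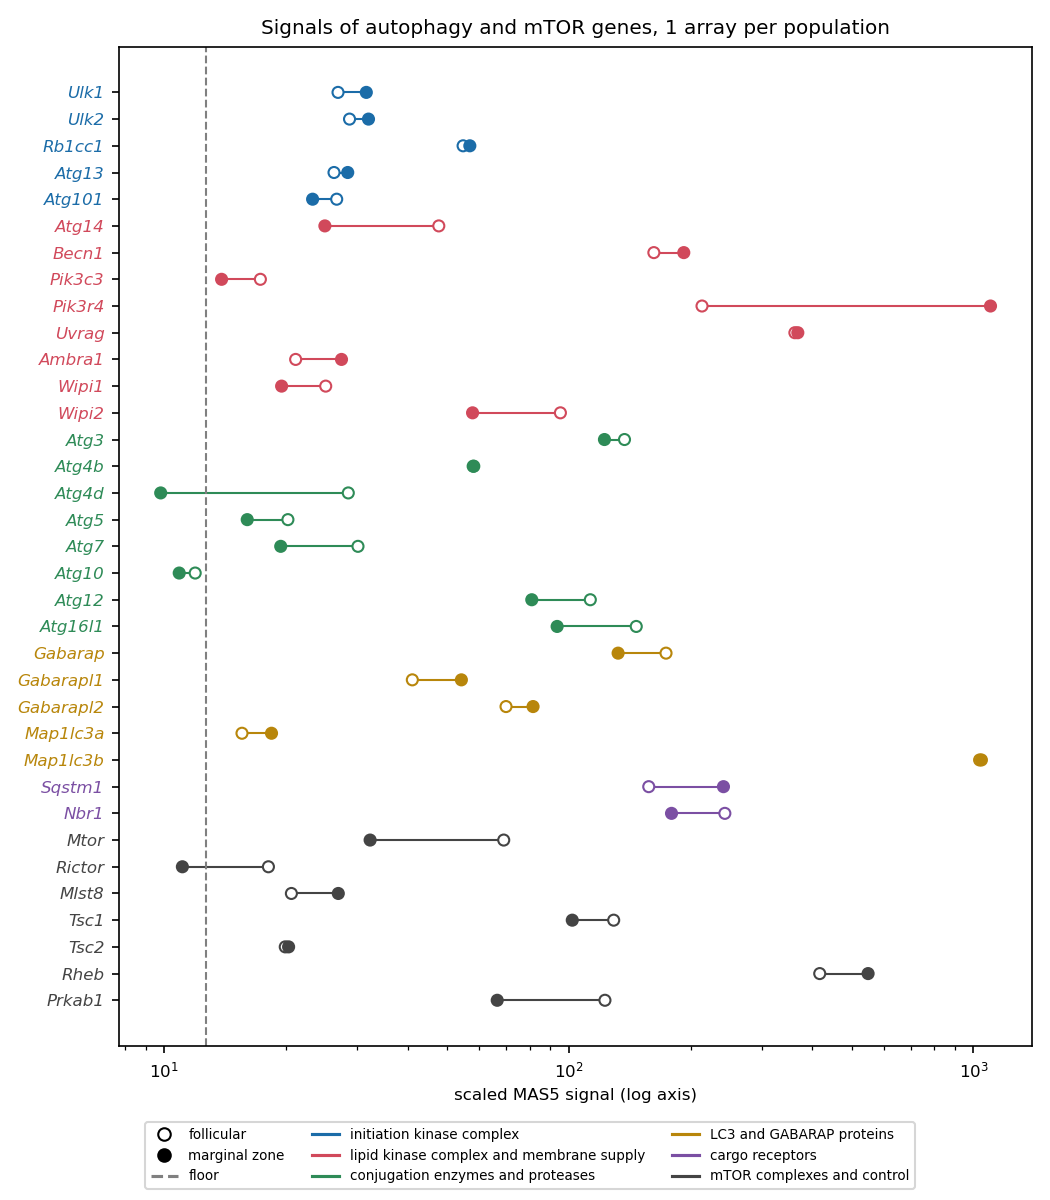
Scaled MAS5 signal (log axis) of the 35 members with a probe set, FO as open and MZ as filled circles, 1 array each, coloured by role, with the floor of 12.7 as a dashed line. Pik3r4 has the widest gap of all members shown, from 213 to 1102, and most pairs of circles lie close together.

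**Figure D2:**
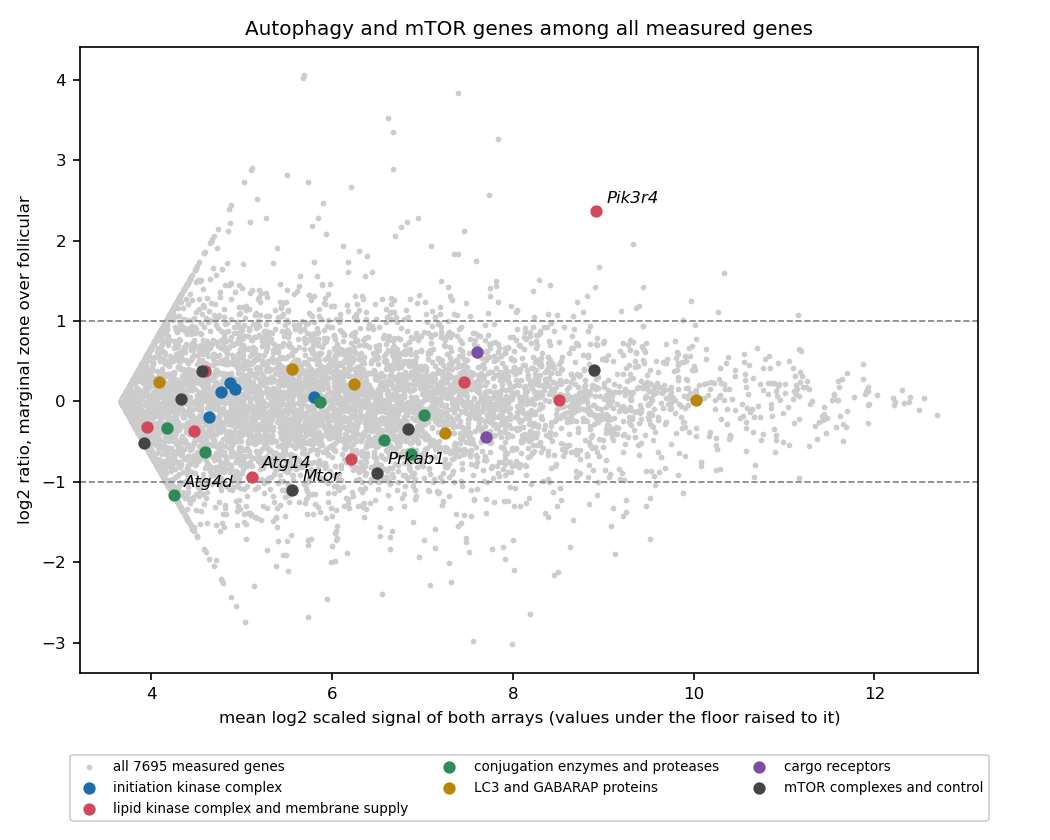
Log2 ratio of MZ over FO signal against the mean log2 signal of both arrays, for all 7695 measured genes (grey) and the 34 measured members (coloured by role); dashed lines mark 2-fold. Members lie through the cloud of all genes, with Pik3r4 near its upper edge at 2.37, the 19th highest, and Mtor and Atg4d under the lower line.

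The kinase complex that starts autophagy was even between the populations. All 5 members were measured, and the median log2 ratio was 0.11. Most of these signals were dim: with the floor at the 75th percentile, a signal of 45.7, only Rb1cc1 was measured. Ulk1, which encodes the kinase itself, was at 26.9 in FO and 31.6 in MZ cells, 1.17-fold higher in the latter. Its relative Ulk2 was at 28.7 and 32.0, and its 3 probe sets agreed closely, from 0.047 to 0.16. The scaffold gene Rb1cc1, which encodes FIP200, was at 54.8 and 56.9. The regulatory subunit Atg13 was at 26.3 and 28.4, a log2 ratio of 0.11, with at least 0.17 by its other probe set, which was under the floor in FO cells. Its partner Atg101 was at 26.7 and 23.3, the one member of the complex with the higher FO signal. For scale, the log2 ratios of different probe sets of 1 gene had a median SD of 0.29, taken from the 2622 genes that had more than 1 above the floor, and all 5 genes of this complex differed by less than that by their brightest probe set. The second probe set of Rb1cc1 was at -0.34.

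The lipid kinase complex held the widest difference among the 40 genes. Pik3r4, which encodes VPS15, the regulatory subunit that holds the lipid kinase VPS34 in its active form, was at 213 in FO and 1102 in MZ cells, 5.16-fold higher in the latter. This ratio, 2.37 on the log2 scale, was the 19th highest of 7695 genes. It rests on 1 probe set, with a name ending in _s_at, which the manufacturer gives to probe sets that may match more than one transcript, so no second probe set of Pik3r4 bears on it. Pik3c3, which encodes VPS34 itself, was close to the floor at 17.3 and 13.9. The gene of Beclin 1, Becn1, was at 162 and 192, and all 4 of its probe sets had the higher signal in MZ cells. These log2 ratios lay between 0.25 and 2.30, the highest a lower bound from a probe set at 10.4 and 62.5 whose name ends in _x_at, given where probes may cross-hybridise. That probe set and another ending in _x_at, at 0.707 and 19.2, were under the floor in FO cells, so being measured fixed their sign. The remaining probe sets of Becn1 were at 0.25 and 0.41.

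The 2 subunits that direct the complex to different tasks differed from each other. Atg14, the subunit for starting autophagosomes, was at 47.7 and 24.9, 1.91-fold higher in FO cells and just under the 2-fold threshold. With the floor at the 75th percentile, a signal of 45.7, the ratio of Atg14 shrank to -0.061. Uvrag, the subunit for endosomes and later steps, was level at 362 and 368, 0.024 on the log2 scale, and -0.0030 once the pair was quantile normalized. Ambra1, which binds Beclin 1, was at 21.1 and 27.4, 1.30-fold higher in MZ cells. Of the WIPI proteins, which read the lipid that VPS34 makes, Wipi2 was at 95.3 and 57.8, 1.65-fold higher in FO cells. Wipi1 was at 25.1 and 19.5, and its 3 measured probe sets went both ways, from -0.36 to 0.14, the dimmer 2 each under the floor in 1 population. The 8 measured genes of this group split evenly, 4 higher in each population, with a median of -0.15 that turned to 0.024 without probe sets ending in _s_at or _x_at.

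The conjugation enzymes leaned to FO cells as a group. All 7 measured genes had the higher FO signal, beside 52.2% of all genes, and the median log2 ratio was -0.48. Atg4b, a protease that prepares LC3, was nearly level at 58.2 and 58.0 and turned to the other side under each of the other 4 scalings, at 0.0037 to 0.048, so under those 6 of 7 leaned to FO cells. With 1 exception the differences were under 2-fold.

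That exception was Atg4d, another LC3 protease, at 28.5 and 9.80, at least 2.25-fold higher in FO cells against the floor. Its MZ signal was under the floor, so being measured fixed its direction. Atg16l1, the scaffold that places the conjugation enzyme on the membrane, was at 147 and 93.5, 1.57-fold higher in FO cells. Atg7, the E1-like enzyme that activates both ubiquitin-like proteins, was at 30.1 and 19.4, 1.55-fold higher in FO cells. Atg12, the ubiquitin-like protein joined to ATG5, was at 113 and 81.0, a 1.40-fold difference in the same direction. Its partner Atg5 was at 20.2 and 16.0, a 1.26-fold difference. Atg3, the E2-like enzyme of LC3, was at 137 and 122, and its log2 ratio was -0.16. Atg10, the E2-like enzyme of ATG12, was at 11.9 and 10.9, both under the floor, so it gives no order. Only Atg4b of these 7 had a second measured probe set, at -0.40, so the lean of the group rests on 1 probe set per gene for the other 6.

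The LC3 and GABARAP proteins that these enzymes attach were close to level. Of the 5 genes, 4 had the higher signal in MZ cells (3 after quantile normalization, or with the mean or median of probe sets), and the median was 0.22. Map1lc3b, which encodes LC3B, was level at 1035 and 1046 by its brightest probe set and at 809 and 810 by the next. Its other 2 probe sets were at 359 and 322 and at 44.1 and 29.5, so its 4 probe sets ran from -0.58 to 0.015, and quantile normalization placed the gene at -0.095. Map1lc3a was near the floor at 15.6 and 18.4. Gabarapl1 was at 41.0 and 54.2, 1.32-fold higher in MZ cells. Its other probe set was at 5.56 and 13.2, under the floor in FO cells, which gives only a lower bound of 0.055 on the log2 scale. Gabarapl2 was at 69.9 and 81.6. Gabarap went the other way at 174 and 132, 1.31-fold higher in FO cells. No gene of the family was past 1.5-fold.

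The 2 measured cargo receptors pointed in opposite directions. Sqstm1, which encodes p62, a receptor that links ubiquitinated proteins to LC3 and is itself degraded by autophagy, was at 158 and 241, 1.53-fold higher in MZ cells. Nbr1, a related receptor, was at 243 and 179, 1.35-fold higher in FO cells. The second, dim probe set of Nbr1 was at 17.9 and 21.4 and had the opposite sign, at 0.26. Optn was not analysed here.

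**Figure D3:**
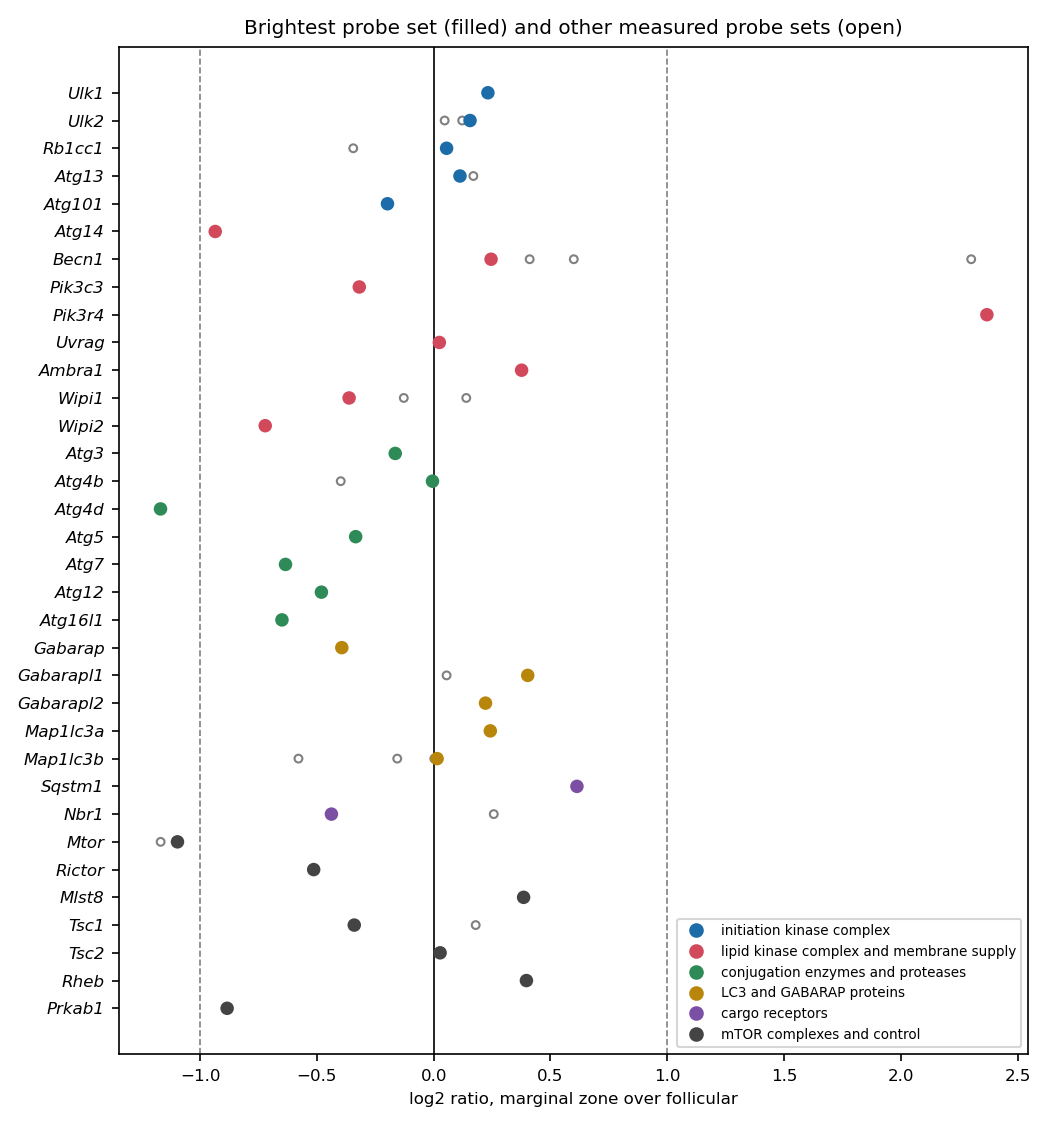
Log2 ratio of MZ over FO signal for each measured member: the brightest probe set filled and coloured by role, other measured probe sets open and grey, with dashed lines at 2-fold. Both probe sets of Mtor lie under -1, the 7 conjugation genes lie at or left of 0, and the open circle of Becn1 at 2.30 stands apart from its other 3 probe sets.

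Among mTOR genes, the kinase itself stood lower in MZ cells. Mtor was at 69.0 in FO and 32.3 in MZ cells by its brightest probe set, 2.14-fold higher in FO cells. Its other probe set was at 36.3 and 16.1, so both gave nearly the same log2 ratio, -1.10 and -1.17, and both lay past 2-fold. Mtor was the one member past 2-fold with a second measured probe set. Both follicular calls depended on the treatment of dim signals: with the floor added to both signals as a pseudocount, the log2 ratios were -0.86 for Mtor and -0.87 for Atg4d. With the floor at the 75th percentile Mtor was at -0.59 and Atg4d was not above it. Rictor, the scaffold of the second mTOR complex, had signals of 18.1 and 11.1, so it was at least 1.43-fold higher in FO cells. It was under the floor in MZ cells, so being measured fixed its direction. Mlst8, the subunit that both mTOR complexes share, went the other way at 20.6 and 26.9, 1.31-fold higher in MZ cells.

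The regulators upstream of mTOR also diverged. Rheb, the small GTPase that switches mTOR complex 1 on at the lysosome, was at 417 and 549, 1.32-fold higher in MZ cells. Tsc1, which with Tsc2 turns Rheb off, was at 129 and 102, 1.27-fold higher in FO cells, while its dim second probe set, at 6.97 and 14.4, gave at least 0.18 in the other direction. Tsc2 was level at 19.9 and 20.3. Prkab1, the beta-1 subunit of AMP-activated kinase, was at 123 and 66.5, 1.85-fold higher in FO cells. The median over the 7 measured genes of this group was -0.34, and it was -0.080 when each gene took the mean of its probe sets.

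Agreement between probe sets was limited. Of the 34 measured members, 23 had 1 measured probe set. Of the remaining 11, the dimmer probe sets agreed in the sign of their mean with the brightest in 6 (54.5%), beside 68.2% of the 2622 genes. The 5 members without that agreement were Rb1cc1, Wipi1, Map1lc3b, Nbr1 and Tsc1, all within 1.5-fold by the brightest probe set. A dimmer probe set under the floor in 1 population could take only 1 sign. This held for those of Atg13, Gabarapl1 and some of Becn1, which agreed, and for those of Wipi1 and Tsc1, which did not.

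Beyond the members, 112 other genes of these pathways in 7 lists were examined, of which 85 had a probe set and 76 were measured. Of the 76, 72 were within 2-fold, 1 was at least 2-fold higher in MZ and 3 in FO cells. Their median log2 ratio was 0.076, and 59.2% had the higher signal in MZ cells. Over all measured genes the shares were 4.39% and 4.86% past 2-fold in MZ and FO cells, and 47.8% with the higher MZ signal.

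The gene past 2-fold in MZ cells was Ddit4, which encodes REDD1, a stress-induced inhibitor of mTOR complex 1 that acts through the TSC proteins. It was at 35.6 and 136, 3.81-fold higher in MZ cells by its only probe set. In the same list of 14 measured mTOR control genes, Prkag1, the gamma-1 subunit of AMP-activated kinase, was at 169 and 85.2, 1.99-fold higher in FO cells. The other probe set of Prkag1 had the opposite sign, at 0.77. Tti1, which helps assemble mTOR complexes, was at 33.5 and 19.0, 1.77-fold higher in FO cells. The median of this list was -0.0066.

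The genes past 2-fold in FO cells were Bnip3, Retreg1 and Tfeb. Tfeb encodes a transcription factor that mTOR complex 1 keeps out of the nucleus and that switches on lysosome and autophagy genes. It had signals of 34.9 and 9.11, so it was at least 2.75-fold higher in FO cells by its only probe set. That MZ signal was under the floor, so being measured fixed the direction of Tfeb. Retreg1, a receptor for autophagy of the endoplasmic reticulum, was at 932 and 318, 2.93-fold higher in FO cells, and at -1.37 by its other probe set. Bnip3, a receptor for autophagy of mitochondria, was at 38.0 and 12.9, 2.95-fold higher in FO cells with the MZ signal barely above the floor. Fkbp8, another mitochondrial receptor, had signals of 10.2 and 23.5, so it was at least 1.85-fold higher in MZ cells. It was under the floor in FO cells, which fixed its direction in the same way. The 10 measured genes of other cargo receptors and mitophagy had a median of 0.13, opposite in sign to their members past 2-fold.

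Effectors of mTOR complex 1 had a median of 0.41 over 9 genes, 6 of them (66.7%) higher in MZ cells, beside 47.8% of all genes, and none past 2-fold. Of the 6, Rps6kb2 was under the floor in FO cells, at 3.84 and 13.4, so being measured fixed its direction. Larp1, which controls the translation of ribosomal protein messages, was at 244 and 480, 1.97-fold higher in MZ cells. Eif4e, which binds the cap of messages, was at 64.1 and 120 (1.87-fold), with its 3 probe sets between 0.67 and 0.92. Eif4ebp1, an inhibitor of Eif4e that mTOR inactivates, was at 23.4 and 45.3 (1.93-fold) by a probe set ending in _x_at. Its second measured probe set was at -0.39. The list's median depended on the probe sets: it was 0.077 without probe sets ending in _s_at or _x_at, and -0.017 over the second brightest probe sets.

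The other lists had medians near 0. For 10 other core autophagy genes it was 0.059: Atg2a, a lipid transfer protein, was 1.77-fold higher in MZ cells, and Vmp1 and the WIPI family gene Wdr45b were 1.56-fold and 1.54-fold higher in FO cells. For 12 genes of fusion with the lysosome it was 0.077, and Vps16 and Vps39, subunits of tethering complexes, were 1.70-fold and 1.49-fold higher in MZ cells, with the fusion protein gene Snap29 1.48-fold higher in FO cells. For 16 genes of amino-acid sensing it was 0.080, although the 3 widest differences were toward FO cells. They were Nprl3 (at least 1.78-fold), the leucine sensor relative Sesn1 (1.72-fold, with 3 probe sets from -0.79 to -0.0047) and Lamtor1 (1.45-fold). Lamtor1 is a lysosomal anchor of mTOR complex 1, and its 3 probe sets ran from -0.82 to -0.54. Nprl3 was at 22.5 and 6.14, under the floor in MZ cells, so being measured fixed its direction. For 5 genes around Tfeb the median was 0.042. The lysosomal calcium channel gene Mcoln1 (1.66-fold) and the repressor gene Zkscan3 (1.44-fold) were higher in MZ cells. With the mean of each gene's probe sets, the medians turned to -0.014 for amino-acid sensing and -0.14 for the genes around Tfeb.

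**Figure D4:**
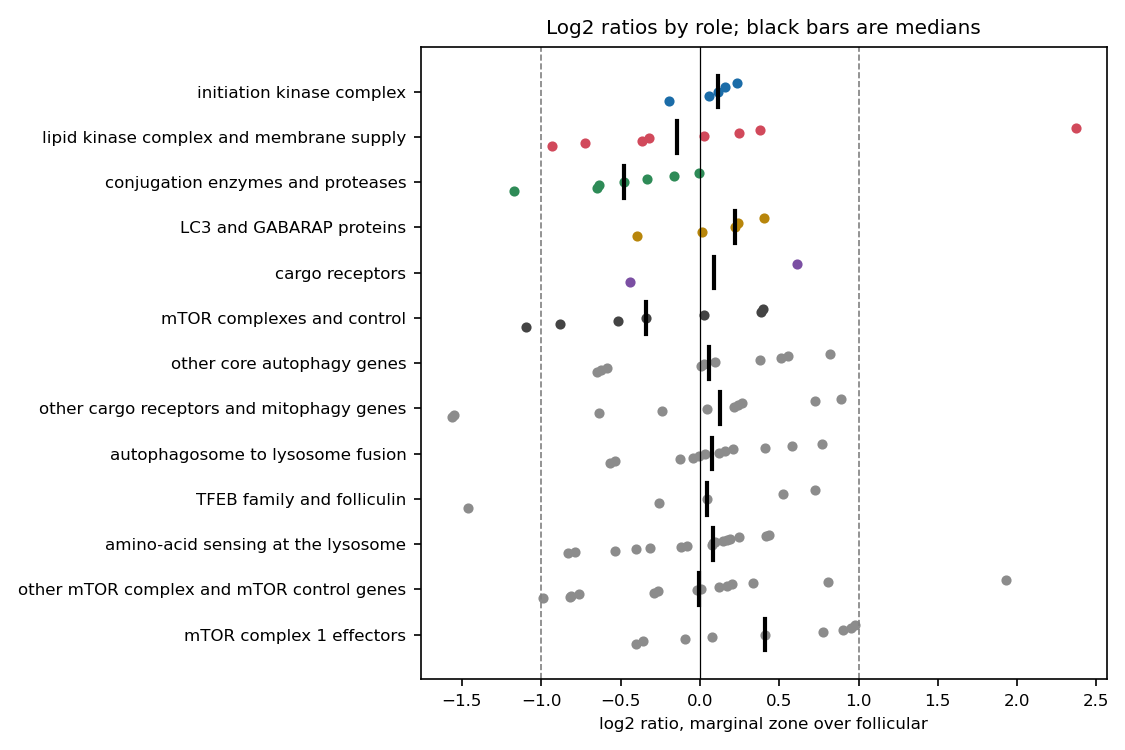
Log2 ratio of MZ over FO signal for each measured gene by role, members in colour and other pathway genes in grey, 1 value per gene; black bars are medians and dashed lines mark 2-fold. The conjugation enzymes lie at or left of 0 with a median of -0.48, and the mTOR complex 1 effectors have the highest median, 0.41.

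TFEB and its relatives bind CLEAR elements, which are built around the letters CACGTG, a sequence that is its own reverse complement and that many other factors also bind. Since Tfeb was among the genes past 2-fold, the 250 bases before each RefSeq start site were searched for it. The 40 listed genes were searched whether measured or not, and 34 had a window. Of these, 4 (11.8%) held CACGTG, beside 6.86% of 27025 genes with a window. The 4 were Atg3, Atg5, Atg7 and Rheb, of which the first 3 had the higher FO and Rheb the higher MZ signal. The stretches around the first match follow, from RefSeq, build GRCm38.p6, 5′ to 3′ on the strand of the gene, with CACGTG in capitals. They show how far the first match lies from the start site, 88 bases before it in Atg3, 8 in Atg5, 126 in Atg7 and 90 in Rheb. Atg3 holds a second match, nearer to its start site.
Atg3, chr16:45158708-45158767, plus strand: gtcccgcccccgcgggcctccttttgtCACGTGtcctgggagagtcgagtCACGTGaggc
Atg5, chr10:44268298-44268338, plus strand: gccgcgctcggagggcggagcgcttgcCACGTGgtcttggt
Atg7, chr6:114670937-114670996, plus strand: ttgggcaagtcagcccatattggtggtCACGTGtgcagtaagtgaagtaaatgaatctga
Rheb, chr5:24842425-24842484, minus strand: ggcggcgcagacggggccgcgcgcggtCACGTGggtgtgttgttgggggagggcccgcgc

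The 150 bases before the start sites of the 3 members past 2-fold complete the set, 1 of them higher in MZ and 2 in FO cells. None of the 3 holds CACGTG in its 250-base window, which says only that these letters are not there.
Pik3r4, chr9:105642845-105642994, plus strand: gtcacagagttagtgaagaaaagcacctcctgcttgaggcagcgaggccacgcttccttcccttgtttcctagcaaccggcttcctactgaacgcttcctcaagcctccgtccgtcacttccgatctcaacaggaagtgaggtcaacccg
Mtor, chr4:148448432-148448581, plus strand: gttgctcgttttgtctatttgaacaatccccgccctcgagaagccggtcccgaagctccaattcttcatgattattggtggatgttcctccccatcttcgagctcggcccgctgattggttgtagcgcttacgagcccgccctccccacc
Atg4d, chr9:21265135-21265284, plus strand: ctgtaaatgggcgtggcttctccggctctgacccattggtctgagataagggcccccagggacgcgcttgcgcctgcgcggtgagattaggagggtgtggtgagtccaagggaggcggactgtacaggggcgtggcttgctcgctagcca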

How the data were processed

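The authors deposited linear-scale intensities of 22626 probe sets on each array; per the submitters' processing notes these are MAS5 signals. Its version, its scaling target and any detection calls are not stated in the sources used here. About 100 ng of RNA was amplified in 2 cycles, per the labels' protocols. Deposited medians were 12.8 (follicular) and 12.6 (marginal zone), and scaling factors were 1.01 and 0.990.

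The platform's annotation gave 20380 probe sets 1 gene, 691 several and 1555 none; those with 1 were used. Values under the floor were raised to it, and a probe set counted as measured when either signal exceeded it. A gene with several measured probe sets took the one whose log2 values had the highest mean. No test was possible, and 2-fold was the size rule. The procedure was tested on simulated data where only genes well above the floor were made to differ, so differences in dim genes were not covered. Python 3.11.15, numpy 2.4.6 and pandas 2.3.3 were used.

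Members and lists were chosen with earlier results of these data known. Named were every member and, of each other list, the 3 measured genes with the largest absolute log2 ratio. The promoter search, and the alternative without probe sets ending in _s_at or _x_at, were chosen after seeing the data. Alternatives covered 4 scalings, 3 floors including none, a pseudocount equal to the floor, 4 rules for probe sets and thresholds of 1.5-fold and 3-fold. Precision is limited by there being 1 array per population.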

Additional observations from a re-analysis of the deposited data

How the results depend on the processing

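No paired analysis was possible because each population had 1 array. Of 238 summary values under the alternatives, 190 stayed within 1.5 times the count, or within the SD between probe sets of 1 gene (0.29, divided by the square root of the number of genes) for a median, and 48 moved. Of 403 values of single members, 387 stayed within that SD. The ratio of Pik3r4 ran from 2.30 to 2.42, Mtor from -1.17 to -0.59 and Atg4d from -1.54 to -0.87.

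Counts past the threshold follow with the share of all measured genes in brackets. Members higher in follicular cells numbered 7 at 1.5-fold (15.8%) and 0 at 3-fold (0.871%). At 2-fold they numbered 0 with the floor at the 75th percentile (3.66%), 0 with a pseudocount (4.05%) and 1 over the second brightest probe sets (5.80%). Those higher in marginal zone cells numbered 2 at 1.5-fold (13.6%). At 2-fold they numbered 0 over the second brightest probe sets (4.54%) or without probe sets ending in _s_at or _x_at (4.47%), which drops Pik3r4. With the floor at the 75th percentile 20 members were measured and 9 were higher in marginal zone cells, beside 48.7% of all genes. Over the second brightest probe sets, which only genes with several have, these were 11 and 8, beside 48.4%.

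The members' median was -0.032 with arrays scaled to the same median. With the floor at the 75th percentile, medians were -0.033 for members, -0.32 for conjugation enzymes, 0.024 for the lipid kinase group, -0.47 for mTOR genes, 0.27 for the Tfeb list, -0.024 for amino-acid sensing and 0.16 for mTOR effectors. With the floor at the 25th percentile they were -0.26 for the Tfeb list and 0.77 for mTOR effectors, which were also at 0.77 with no floor. Over the second brightest probe sets they were 0.055 for members, 0.029 for LC3 and GABARAP, 0.28 for the lipid kinase group, -0.49 for mTOR genes, -0.095 for the Tfeb list, -0.21 for amino-acid sensing, -0.017 for mTOR effectors, -0.034 for other cargo receptors and 0.091 for other mTOR control. Without probe sets ending in _s_at or _x_at they were 0.0048 for members, 0.055 for LC3 and GABARAP, 0.024 for the lipid kinase group, -0.49 for the Tfeb list, 0.077 for mTOR effectors and 0.24 for other core autophagy genes. With the mean of probe sets they were -0.14 for the Tfeb list, -0.014 for amino-acid sensing, 0.22 for fusion, 0.28 for mTOR effectors and -0.080 for mTOR genes. With the median of probe sets they were the same to 2 decimals, other than -0.095 for the Tfeb list. The causes were not tested.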
